A study of Mus musculus with 14 samples.

Results

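The acute-phase genes described here are the fibrinogen chains Fga, Fgb, and Fgg, the serum amyloid A genes Saa1, Saa2, and Saa3, haptoglobin (Hp), the secreted lectin Reg3g, and ceruloplasmin (Cp). These 9 genes were taken by symbol from the 21878 genes measured in the kidney of each of 14 mice, and all 9 were found. RNA sequencing had been done on male C57BL/6J mice with or without complement factor B (Cfb), the protease component that drives the alternative complement pathway, and the study asked how loss of Cfb alters the diabetic kidney. The 4 groups were Cfb-/- diabetic mice (n=4), WT diabetic mice (n=4), Cfb-/- control mice (n=3), and WT control mice (n=3). Diabetic mice of both genotypes ate a high-fat diet with 60% of calories from fat for 4 weeks and then received streptozotocin, a toxin of insulin-producing cells, at 60 mg/kg on 5 days. Control mice of both genotypes ate chow with 10% of calories from fat and were injected with citrate buffer. The mice were 8 weeks old at the start and were killed 21 weeks after streptozotocin. A time of 34 weeks, without a starting point, stands in the labels. The deletion is global rather than limited to the kidney. In the diabetic groups diet and streptozotocin went together, so their effects cannot be told apart. The labels call the deletion a knockdown and give the control mice the diabetic treatment, and groups were therefore taken from the sample names. Cfb itself, expressed as mean ± SD, was at 1.34 ± 0.14 FPKM in the Cfb-/- diabetic group (n=4) and at 72.5 ± 11.2 FPKM in the WT diabetic group (n=4).

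The acute-phase response is a change in secreted proteins that follows injury or inflammation. The liver is its main source, and IL-6 family cytokines drive many of its genes through a shared receptor subunit and the transcription factor STAT3, together with C/EBP factors. Fibrinogen is assembled from the Aα, Bβ, and γ chains encoded by Fga, Fgb, and Fgg and is cleaved by thrombin to fibrin, and injured tubular epithelium is known to transcribe these genes as well. Serum amyloid A proteins travel on high-density lipoprotein, haptoglobin binds free hemoglobin, ceruloplasmin carries copper and oxidizes iron, and Reg3g encodes an antibacterial lectin best known from the gut.

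The 9 genes lie in 5 places of the mouse genome (GRCm38.p6, RefSeq). Fgg, Fga, and Fgb stood in this order in 42.1 kb of chr3:83007724-83049863, with Fgb on the opposite strand to the others. Saa3, Saa1, and Saa2 stood in 42.3 kb of chr7:46711998-46754313. Cp was at chr3:19956933-20009750, Reg3g at chr6:78466269-78468874, and Hp at chr8:109575128-109579172. The promoters of the fibrinogen cluster are shown because its members differed in level and in response, and that of Saa2 as the near copy of the Saa1 window. Each is the 250 bases before the RefSeq start (GRCm38.p6), read 5′ to 3′ on the strand of the gene, and capitals mark letters that match any of the motifs searched.
Fga, chr3:83025903-83026152, plus strand: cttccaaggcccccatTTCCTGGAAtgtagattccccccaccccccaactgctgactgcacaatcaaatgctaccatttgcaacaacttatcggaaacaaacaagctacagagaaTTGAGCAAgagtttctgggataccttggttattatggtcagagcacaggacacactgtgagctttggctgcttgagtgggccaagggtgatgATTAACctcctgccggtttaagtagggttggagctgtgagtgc
Fgb, chr3:83049864-83050113, minus strand: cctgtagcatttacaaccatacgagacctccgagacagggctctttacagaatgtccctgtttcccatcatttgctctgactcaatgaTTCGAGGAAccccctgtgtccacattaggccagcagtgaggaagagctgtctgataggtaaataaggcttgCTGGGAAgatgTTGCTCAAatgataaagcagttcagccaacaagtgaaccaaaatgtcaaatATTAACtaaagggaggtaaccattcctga
Fgg, chr3:83007474-83007723, plus strand: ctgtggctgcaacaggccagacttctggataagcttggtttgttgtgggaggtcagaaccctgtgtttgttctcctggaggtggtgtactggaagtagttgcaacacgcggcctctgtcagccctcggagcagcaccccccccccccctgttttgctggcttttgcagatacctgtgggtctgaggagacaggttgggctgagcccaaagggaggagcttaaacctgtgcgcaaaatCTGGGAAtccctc
Saa2, chr7:46751583-46751832, plus strand: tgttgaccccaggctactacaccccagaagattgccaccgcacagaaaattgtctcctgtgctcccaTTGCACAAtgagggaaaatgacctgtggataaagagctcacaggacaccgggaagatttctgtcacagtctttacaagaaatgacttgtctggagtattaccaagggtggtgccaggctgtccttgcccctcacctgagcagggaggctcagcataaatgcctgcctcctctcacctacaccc

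The motifs, searched on both strands, were TTCNNNGAA for STAT factors, CTGGGAA for the type II IL-6 response element, TTGCNNAA for C/EBP factors, GTTAAT for part of the HNF1 site, and GGANNTTCC for NF-kB. These searches are descriptions of letters, and the windows of 8 members were in the promoter table. In the fibrinogen cluster, Fga and Fgb each held a STAT, a C/EBP, and an HNF1 match, and Fgb also held CTGGGAA, whereas the Fgg window held CTGGGAA alone, from 13 to 7 bases before the start. A STAT match was found in 7.04% of all 32536 mouse promoter windows of this length, and CTGGGAA in 9.14%. A C/EBP match stood in the windows of 6 members, Cp, Fga, Fgb, Saa1, Saa2, and Saa3, against 9.57% of all windows. GTTAAT was found in Cp, Fga, and Fgb and in 6.47% of all windows, CTGGGAA was also found in Reg3g, and GGANNTTCC was in none of the 8 and in 3.59% of all windows. The Saa1 and Saa2 windows were identical at 238 of 251 aligned positions, including the C/EBP match, although the levels of these genes differed. The Saa1 window, chr7:46742981-46743230 on the minus strand, ends at a start inside the RefSeq locus of this gene, which reaches to 46743181, and its letters are not shown.

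Levels are given in FPKM, fragment counts scaled to transcript length and sequencing depth. The sums of FPKM per mouse were 330246 to 488196, and the number of reads behind each value is unknown. Differences were tested with limma on log2(FPKM + 0.1) over 14912 genes with at least 0.1 FPKM in at least 3 mice, and a gene was called at a Benjamini-Hochberg adjusted p under 0.05. Of the 9 members, 8 met this filter, whereas Saa2, which never exceeded 0.0667 FPKM, did not. Saa1, Saa3, and Reg3g met it through few mice (8, 5, and 4 of 14 mice at or above 0.1 FPKM). These were all diabetic mice for Saa3 and mostly diabetic mice for Saa1 and Reg3g. The calls of these genes as higher in diabetes are therefore not independent of the filter. The labels name each sample as a separate mouse, and kidney is bulk tissue, so a change in the number of cells of a type and a change in RNA per cell cannot be told apart.

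In WT mice, 6 of the 9 members were higher in diabetes by this test, namely Fga, Fgg, Saa1, Hp, Reg3g, and Cp. The background was high, since 36.2% of all tested genes were called higher and 9.97% lower in the same comparison. The diabetic and control values of 5 members, all those named except Reg3g, did not overlap, which was so for 35.5% of all tested genes. In Cfb-/- mice, 4 members were called higher, namely Fgb, Fgg, Saa3, and Cp, against 27.4% of all tested genes higher and 6.4% lower, and 3 of them (Fgb, Fgg, and Cp) did not overlap, against 33.6% of all tested genes. Over the whole table, diabetes came with a median log2 difference of 0.29 in WT and of 0.22 in Cfb-/- mice, and of 0.03 and -0.01 after median-ratio scaling. Between Cfb-/- and WT mice, 0 members were called in the diabetic state and 0 in the control state, where 0.00671% of genes were called in each case. The 1 gene called in each was Cfb itself. In the interaction of genotype and diabetes, 0 members and 0% of all tested genes were called by limma, with 861 genes at an unadjusted p under 0.05.

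**Figure D1:**
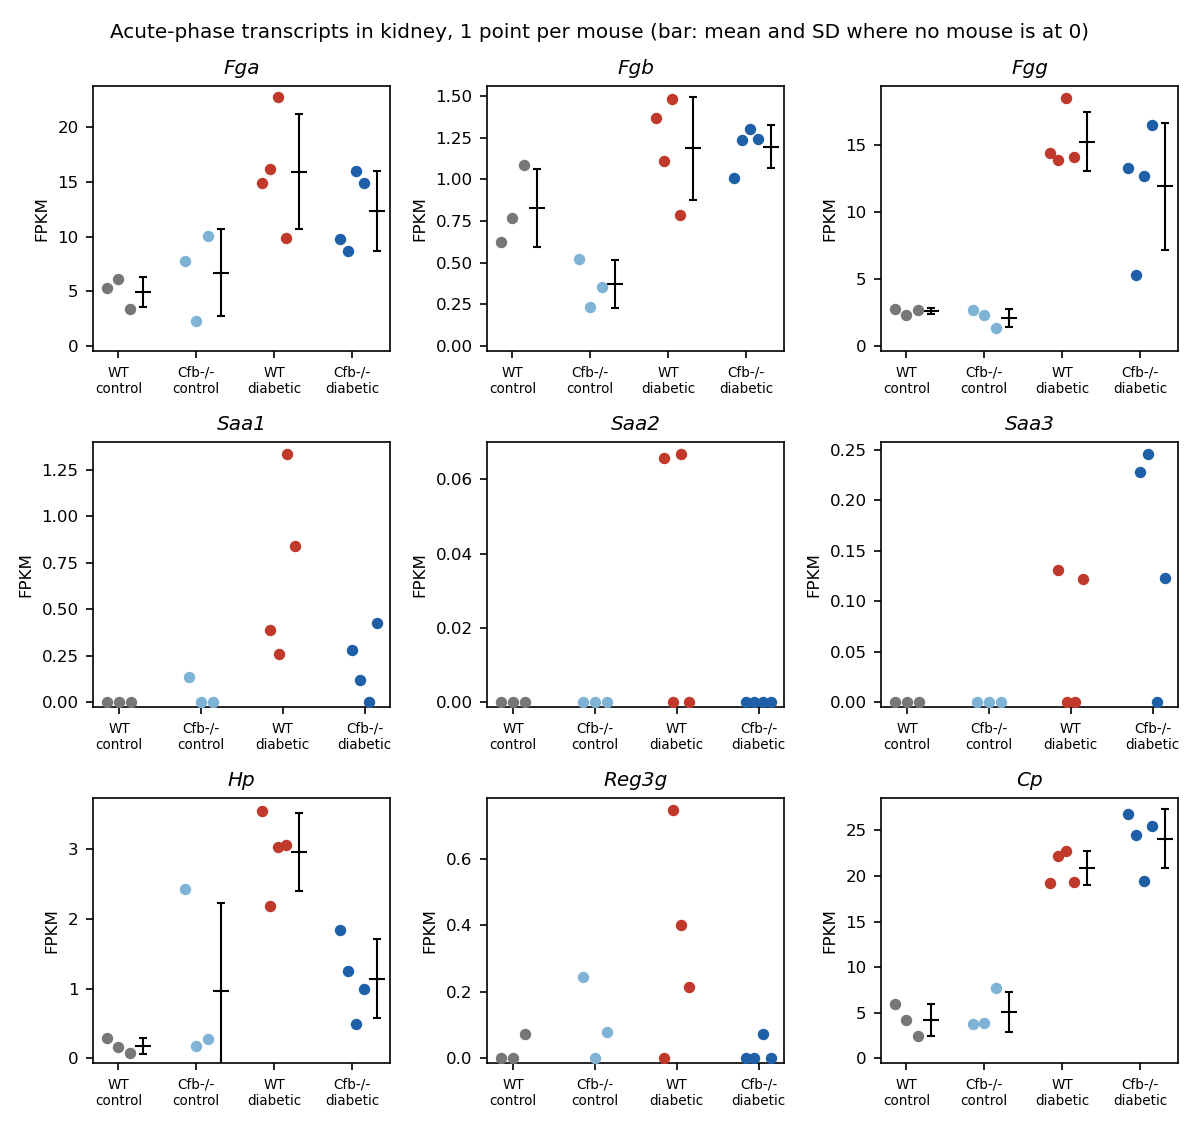
FPKM of the 9 genes (linear vertical axes, each with its own scale) in WT control, Cfb-/- control, WT diabetic, and Cfb-/- diabetic mice, with a point for each mouse and, for genes listed at 0 in no mouse, a bar for the group mean and SD (cut off at the axis). Fgg and Cp in diabetic mice of both genotypes lay above all control mice, whereas Hp was highest in WT diabetic mice and in 1 Cfb-/- control mouse.

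Fgg and Cp had the most uniform response, with a similar rise in both genotypes. Fgg, which encodes the γ chain, was at 14.4, 13.9, 18.6, and 14.1 FPKM in the 4 WT diabetic mice and at 2.77, 2.35, and 2.69 FPKM in the 3 WT control mice. In Cfb-/- diabetic mice it was at 13.3, 5.28, 12.7, and 16.5 FPKM, against 2.66, 2.33, and 1.37 FPKM in Cfb-/- control mice. Every diabetic mouse thus exceeded every control mouse, with the second Cfb-/- diabetic mouse nearest to them. The log2 difference was 2.50 ± 0.31 (SE, limma adjusted p = 3.62e-05) in WT mice and 2.37 ± 0.31 (SE, adjusted p = 5.84e-05) in Cfb-/- mice. The interaction was -0.12 on the log2 scale with a 95% confidence interval of -1.05 to 0.81, so genotype effects within this range were not resolved.

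Cp was at 19.3, 22.2, 22.7, and 19.3 FPKM in WT diabetic mice and at 5.94, 4.18, and 2.38 FPKM in WT control mice. It was at 26.8, 24.5, 19.4, and 25.5 FPKM in Cfb-/- diabetic mice and at 3.78, 3.81, and 7.65 FPKM in Cfb-/- control mice. No diabetic value reached down to a control value. The rise was 2.39 ± 0.27 (SE, limma adjusted p = 2.11e-05) on the log2 scale in WT and 2.29 ± 0.27 (SE, adjusted p = 2.94e-05) in Cfb-/- mice. Between the diabetic groups Cp differed by 0.20 (95% confidence interval -0.34 to 0.73), and the ranges overlapped.

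Fga and Fgb, which encode the Aα and Bβ chains, moved less evenly. Fga was at 14.9, 16.2, 22.7, and 9.90 FPKM in WT diabetic mice and at 5.28, 6.10, and 3.43 FPKM in WT control mice, without overlap. In Cfb-/- mice the diabetic values of 9.79, 8.68, 16.0, and 14.8 FPKM overlapped the control values of 7.79, 2.31, and 10.0 FPKM. The log2 difference was 1.65 ± 0.41 (SE, limma adjusted p = 0.00561) in WT and 1.06 ± 0.41 (SE, adjusted p = 0.0633) in Cfb-/- mice. The latter became 1.46 (adjusted p = 0.0195) without Cfb-/- control mouse 3, the highest of its group, and 0.43 (adjusted p = 0.367) without mouse 2, the lowest. The interaction was -0.59 (95% confidence interval -1.85 to 0.66), so a different response of Fga in the genotypes was not shown.

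Fgb was the lowest of the chains per length in every group. It was at 1.37, 1.11, 1.48, and 0.786 FPKM in WT diabetic mice and at 0.627, 0.770, and 1.09 FPKM in WT control mice, and these ranges overlapped. In Cfb-/- diabetic mice it was at 1.01, 1.23, 1.30, and 1.24 FPKM, above the 0.521, 0.236, and 0.354 FPKM of Cfb-/- control mice. The diabetic groups lay together, whereas all Cfb-/- control mice lay below all WT control mice. For the control groups the exact permutation test gave p = 0.1, the smallest that 3 against 3 mice allow. The share of all tested genes separated in this way was not counted. The log2 difference with diabetes was 0.47 ± 0.25 (SE, limma adjusted p = 0.138) in WT and 1.5 ± 0.25 (SE, adjusted p = 4.01e-04) in Cfb-/- mice. The WT difference turned to -0.25 after quantile normalization. Between the control groups Fgb differed by -1.0 (unadjusted p = 0.00219, limma adjusted p = 0.236), where 2614 tested genes had an unadjusted p under 0.05 by limma. It differed by -1.16 (adjusted p = 0.0324) without the first WT control mouse, a setting in which 1724 genes were called. The interaction was 1.03 (95% confidence interval 0.28 to 1.79) and was not called (limma adjusted p = 0.779).

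The proportions of the chains differed between the WT diabetic and WT control mice measured here. The Fgg to Fgb ratio of FPKM was 2.47 to 4.42 in WT control mice and 10.5 to 18.0 in WT diabetic mice. The Fga to Fgb ratio was 3.15 to 8.43 in WT control and 10.9 to 15.3 in WT diabetic mice. Neither pair of ranges overlapped, and the exact permutation test gave p = 0.0571 for each, the smallest that 4 against 3 mice allow. In Cfb-/- mice the Fgg to Fgb ratio was 3.87 to 9.87 in control and 4.28 to 13.3 in diabetic mice, with medians of 5.11 and 11.5, and the ranges overlapped. The Fga to Fgb ratio was 9.80 to 28.4 in Cfb-/- control and 7.03 to 12.3 in Cfb-/- diabetic mice, also with overlap. The Fga to Fgg ratio was 1.27 to 2.60 in WT control and 0.700 to 1.22 in WT diabetic mice, also without overlap (exact permutation p = 0.0571). Its medians were 1.90 and 1.10 in these groups. In Cfb-/- control and diabetic mice the medians were 2.92 and 1.08, and the ranges overlapped.

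**Figure D2:**
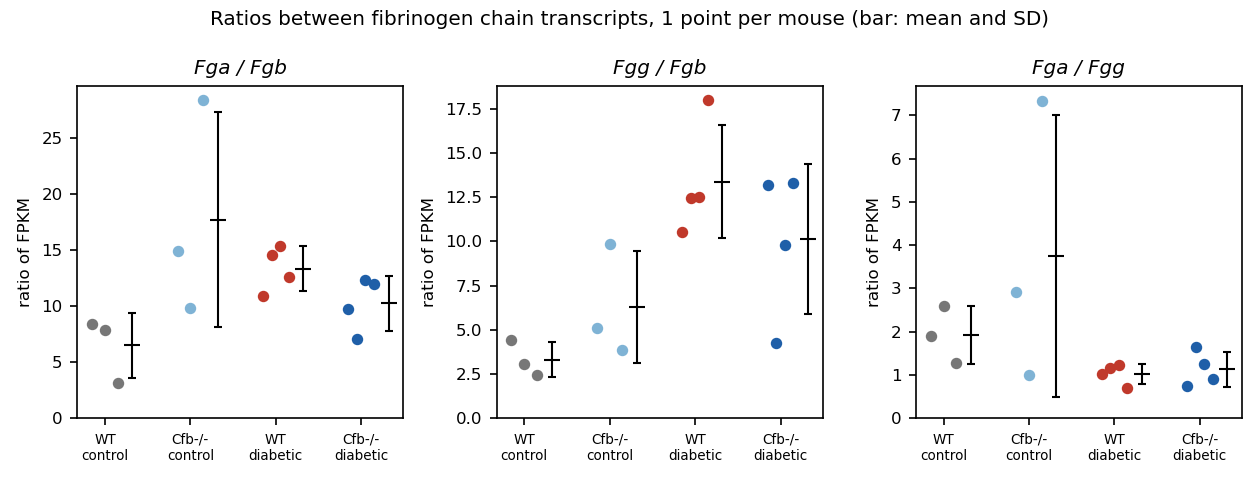
Ratios of FPKM between the fibrinogen chain transcripts (vertical axes from 0), with a point for each mouse and a bar for the group mean and SD. The Fgg to Fgb ratio was 10.5 to 18.0 in WT diabetic mice and 2.47 to 4.42 in WT control mice.

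Hepatocyte genes were examined beside fibrinogen because liver is its main source. Of 12 hepatocyte markers, 9 were tested, of which 3 were higher (Alb, Ttr, and Serpina1c) and 2 lower (Apoh and C9) in WT diabetic mice, and 2 higher (Alb and Ttr) and 1 lower (Apoh) in Cfb-/- diabetic mice. The counts of higher genes were near the shares of all tested genes, 36.2% in WT and 27.4% in Cfb-/- mice. Over all tested genes, 9.97% were lower in WT and 6.4% in Cfb-/- mice. Markers of this list with clear levels were Serpina1a and Serpina1b (protease inhibitors), with group means of 11.1 to 19.2 and 7.61 to 10.97 FPKM, and Apoh, with 12.2 FPKM in WT control and 3.17 FPKM in WT diabetic mice. Alb (albumin) was at 2.28 to 5.36 FPKM in all mice. The 3 untested markers were near 0 in every mouse, with Cps1 (the urea cycle enzyme of liver) at or below 0.00826 FPKM, Tat (tyrosine aminotransferase) at or below 0.0585 FPKM, and Ahsg (fetuin A) at or below 0.0993 FPKM. The summed level of the list was 120 to 331 FPKM in WT diabetic, 162 to 248 FPKM in Cfb-/- diabetic, 67.7 to 118 FPKM in WT control, and 70.6 to 104 FPKM in Cfb-/- control mice. In diabetic mice most of it was Ttr (transthyretin), with a mean of 158 FPKM in each genotype. Markers of injured tubule were higher in diabetes in 8 of 8 genes in both genotypes, and their part in the rise of fibrinogen chains and Cp was not tested.

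Hp was the member in which the diabetic groups of the genotypes did not overlap. It was at 3.54, 2.19, 3.04, and 3.06 FPKM in WT diabetic mice, against 0.296, 0.155, and 0.0721 FPKM in WT control mice. In Cfb-/- diabetic mice it was at 1.84, 1.26, 0.487, and 0.989 FPKM, all below the WT diabetic mice. Cfb-/- control mice were at 2.42, 0.170, and 0.277 FPKM, with the first far above the other two. The log2 difference with diabetes was 3.54 ± 0.60 (SE, limma adjusted p = 4.02e-04) in WT and 0.84 ± 0.60 (SE, adjusted p = 0.307) in Cfb-/- mice, and the latter was 1.84 ± 0.42 (SE, adjusted p = 0.00570) without the first Cfb-/- control mouse and 0.22 (adjusted p = 0.823) without the second, the lowest of that group. Between the diabetic groups it was -1.41 (95% confidence interval -2.60 to -0.21), with an unadjusted p of 0.0247, an adjusted p of 1 by limma, and an exact permutation p of 0.0286 before any adjustment, the smallest that 4 against 4 mice allow. Values lower in Cfb-/- mice without overlap were found in 0.885% of all tested genes. The interaction of -2.70 was not called either (unadjusted p = 0.00679, limma adjusted p = 0.779), and it was -3.32 to -1.71 when single mice were left out.

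Markers of fat cells moved with Hp, a gene that adipocytes also express. The summed level of 6 adipocyte markers (Adipoq, Plin1, Cidec, Cfd, Lep, and Retn) was 11.2, 7.11, 31.1, and 8.77 FPKM in WT diabetic mice and 9.57 FPKM in the first Cfb-/- control mouse. It was 0 to 0.386 FPKM in the other 9 mice, and 4 of the 6 markers were listed at 0 in all Cfb-/- diabetic mice. These 5 mice with adipocyte markers were also the 5 mice with the highest Hp, at 2.19 to 3.54 FPKM against 0.0721 to 1.84 FPKM in the other 9 mice. Among those 9 mice Hp also differed, at 0.487 to 1.84 FPKM in Cfb-/- diabetic mice and 0.0721 to 0.296 FPKM in control mice. All 5 tested adipocyte markers were higher in diabetes in WT mice, and 0 of 5 in Cfb-/- mice, against 36.2% and 27.4% of all tested genes. Adipoq, Plin1, Cfd, and Retn were below 0.1 FPKM in all WT control and Cfb-/- diabetic mice and met the filter mainly through WT diabetic mice. Their calls as higher in WT diabetic mice are therefore not independent of the filter, which limits the comparison with all tested genes. The part of adipocyte RNA in the Hp result was not tested.

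**Figure D3:**
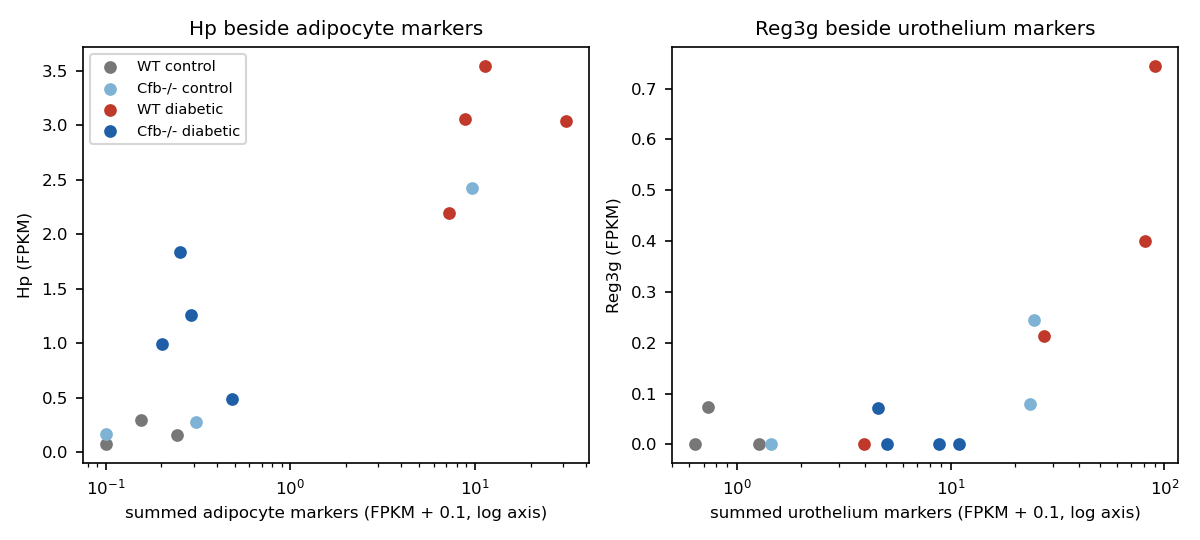
Left, Hp (FPKM) against the summed level of 6 adipocyte markers (FPKM + 0.1, log axis), and right, Reg3g (FPKM) against that of 8 urothelium markers, with a point for each mouse colored by group. The 5 mice with at least 7.11 FPKM of adipocyte markers had the highest Hp levels, and the 2 mice with over 80 FPKM of urothelium markers had the highest Reg3g levels.

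The serum amyloid A transcripts were scarce. Saa1 was at 0.390, 0.259, 1.33, and 0.837 FPKM in WT diabetic mice, whereas every WT control mouse was listed at 0, so that no fold is given. In Cfb-/- diabetic mice it was at 0.281, 0.120, 0, and 0.426 FPKM, and in Cfb-/- control mice at 0.133, 0, and 0 FPKM. All WT diabetic mice lay above all WT control mice, whereas the Cfb-/- groups overlapped. Saa1 was called higher in WT diabetic mice (limma adjusted p = 0.00109) and not in Cfb-/- diabetic mice (adjusted p = 0.196), but the latter was called without Cfb-/- diabetic mouse 3, which was listed at 0 (adjusted p = 0.0396). Its genotype difference in diabetic mice was -1.44 (95% confidence interval -2.52 to -0.35, unadjusted p = 0.0130, limma adjusted p = 1), with overlap of the groups.

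Saa3, a family member made mainly outside the liver, was at 0.228, 0.246, 0, and 0.123 FPKM in Cfb-/- diabetic mice and at 0.131, 0, 0, and 0.122 FPKM in WT diabetic mice, and it was listed at 0 in all 6 control mice. Saa3 was called in Cfb-/- mice (limma adjusted p = 0.0412) and not in WT mice (adjusted p = 0.251), and the call was lost in 10 of 14 other settings. The genotype difference in diabetic mice was 0.58 (95% confidence interval -0.24 to 1.39), and the groups overlapped. Macrophage markers were higher in diabetes in 9 of 9 genes in WT and 8 of 9 in Cfb-/- mice, against 36.2% and 27.4% of all tested genes. The part of macrophages in the Saa3 values was not tested. Saa2 was at 0.0657 and 0.0667 FPKM in WT diabetic mice 1 and 3 and listed at 0 in the other 12. The Saa1 and Saa2 reference transcripts (GENCODE M21) were identical at 572 of 609 aligned positions, and 74 of 560 windows of 50 bases of Saa1 occurred unchanged in Saa2 transcripts. No window of 125 bases, the shorter read length given in the labels, was shared. How reads were divided between these paralogs is not given in the sources used here.

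Reg3g was near the floor and uneven. It was at 0, 0.745, 0.400, and 0.214 FPKM in WT diabetic mice and at 0, 0, and 0.0731 FPKM in WT control mice. Cfb-/- diabetic mice were at 0, 0, 0.0719, and 0 FPKM, and Cfb-/- control mice at 0.245, 0, and 0.0788 FPKM. The call in WT mice (log2 difference 1.5 ± 0.58 SE, limma adjusted p = 0.0476) rested on 3 of 4 diabetic mice, was 1.06 to 2.09 when single mice were left out, and was lost in 11 of 14 other settings. In Cfb-/- mice the difference was -0.68 (adjusted p = 0.392). Between the diabetic groups it was -1.57 (unadjusted p = 0.0112, limma adjusted p = 1), and the groups overlapped at 0.

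Urothelial markers, which mark the lining of the renal pelvis, varied with Reg3g between mice. The sum of 8 such markers was 3.82, 90.5, 81.3, and 27.4 FPKM in WT diabetic mice, in the order of the Reg3g values above, so the mouse without Reg3g was the lowest. It was 24.3, 1.35, and 23.4 FPKM in Cfb-/- control mice, 4.50 to 10.8 FPKM in Cfb-/- diabetic mice, and 0.537 to 1.18 FPKM in WT control mice. The 5 mice with the highest sums were also the 5 with the highest Reg3g. The fifth place is uncertain, since 0.0788 FPKM in Cfb-/- control mouse 3 was hardly above other mice. WT control mouse 3 was at 0.0731 FPKM and Cfb-/- diabetic mouse 3 at 0.0719 FPKM, and such values cannot be told from 0 with a known error. The part of urothelium in the Reg3g values was not tested. All 8 markers were higher in diabetes in WT mice and 0 of 8 in Cfb-/- mice, against 36.2% and 27.4% of all tested genes. None of the 6 other regenerating family genes examined (Reg1, Reg2, Reg3a, Reg3b, Reg3d, and Reg4) met the filter on low values.

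**Figure D4:**
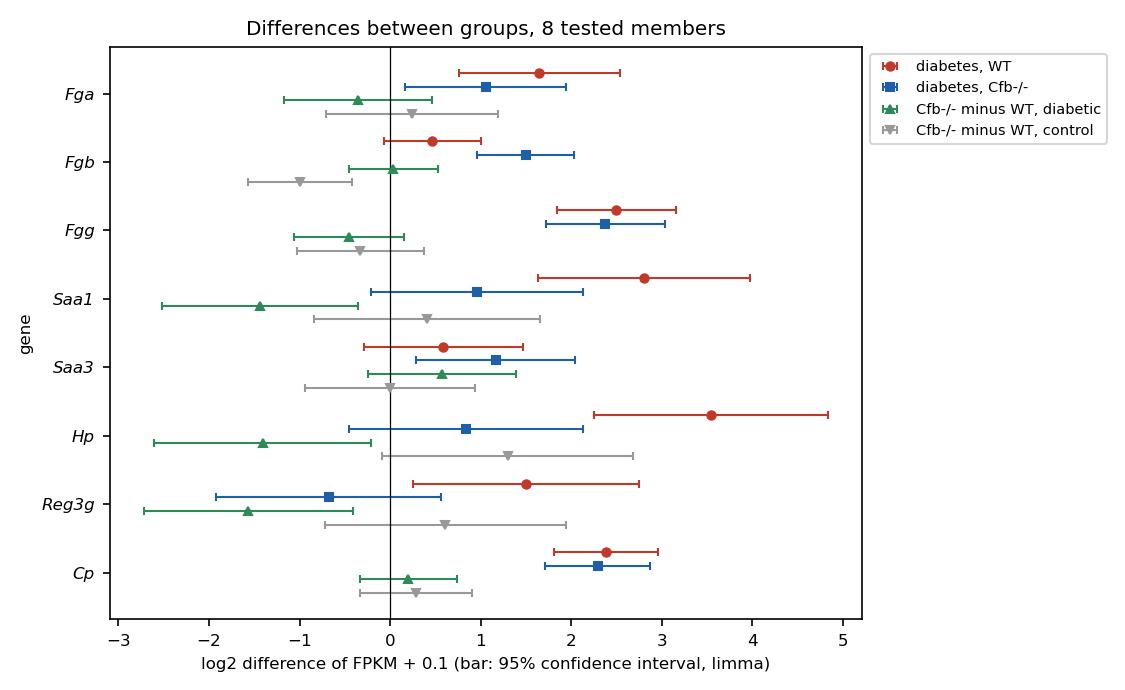
Log2 difference of FPKM + 0.1 (horizontal axis) with its 95% confidence interval by limma, for the 8 tested genes and 4 comparisons of groups. Intervals of Fgg and Cp lay above 0 for diabetes in both genotypes, whereas the intervals for genotype in diabetic mice (triangles pointing up) included 0 for Fga, Fgb, Fgg, Saa3, and Cp. The intervals are not adjusted for the number of genes tested, and none of the 8 genes was called for genotype in diabetic mice.

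Per length, the order of the median levels in WT diabetic mice was Cp, Fga, Fgg, Hp, Fgb, Saa1, Reg3g, Saa3, and Saa2. The ranges of Cp and Fga, of Fga and Fgg, and of each pair of neighbours from Fgb to Saa2 overlapped, whereas Fgg lay above Hp and Hp above Fgb in every mouse. In WT control mice the order began with Fga, Cp, and Fgg, of which the ranges of Fga and Cp, and of Cp and Fgg, overlapped, followed by Fgb and Hp.

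Among themselves, the members did not vary as a block. The Pearson correlation of deviations from the group means over the 14 mice, which share 1 processing, ran from -0.62 for Saa3 and Reg3g to 0.58 for Saa1 and Hp. It was 0.51 for Fga and Fgb but 0.11 for Fga and Fgg and 0.11 for Fgb and Fgg. The genes most like each member were picked from all 14912 tested genes, so with 14 mice high correlations can arise by chance, and none was tested. Over the same 14 mice, the genes most like Fga were Slc2a5 (0.946), Mocos (0.920), and Ivd (0.912), and those most like Fgb were Lrp3 (0.941), Clec2h (0.913), and Sqstm1 (0.902). Fgg was most like Gm21992 (0.910), Snn (0.843), and Slc47a1 (0.803), and Cp most like Myo5a (0.920), Smoc2 (0.898), and Gm6309 (0.896). For Hp the leading genes were Gemin4 (0.884), Cldn1 (0.874), and Opn3 (0.871), and for Reg3g they were Sptssb (0.897), Trp63 (0.877), and Trim29 (0.866). The correlations of Saa1 with Tnfrsf17 (0.969), H2-Eb2 (0.883), and Zfp750 (0.878), and of Saa3 with Rhbdl3 (0.944), Cd300lb (0.938), and Mxra7 (0.920), rest on few mice above 0. So do all those of Reg3g, including the -0.62 with Saa3. Reg3g was above 0 in 7 and Saa3 in 5 of the 14 mice.

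The counts of the following lists stand beside the same shares of all tested genes, namely 36.2% higher and 9.97% lower with diabetes in WT mice and 27.4% higher and 6.4% lower in Cfb-/- mice, and no list was tested as a set. Of 24 other acute-phase genes, 17 were tested, and 13 were higher and 1 lower with diabetes in WT mice. The median difference of the 17 was 1.65 on the log2 scale, against 0.29 over the whole table. In Cfb-/- mice 12 were higher and 1 lower, and 0 were called between the genotypes in either state. Lcn2, which encodes the siderophore-binding injury marker NGAL, rose by 5.92 ± 0.43 (SE, limma adjusted p = 7.31e-07) on the log2 scale in WT and by 4.26 ± 0.43 (SE, adjusted p = 9.29e-06) in Cfb-/- mice. Serpina3n, a protease inhibitor, rose by 4.37 and 2.88, and C3, the central complement component, by 4.23 and 3.75. Apcs, which encodes serum amyloid P, fell by 2.54 in WT and by 2.0 in Cfb-/- mice. Orm1, a classical acute-phase gene of liver, was listed at 0 in 12 of the 14 mice and was not tested.

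Of the upstream ligands, 7 of 10 were tested and 3, a share near that of all genes, were higher in WT diabetic mice, Lif by 2.41, Tnf by 1.71, and Clcf1 by 1.57 on the log2 scale, and in Cfb-/- mice the same 3 and Il11 were higher, by 2.67, 1.68, 1.88, and 1.40. Il6 itself stayed at or below 0.253 FPKM in all mice and was not tested. Of 24 receptor and STAT3 pathway genes, 12 were higher and 2 lower in WT diabetic mice, and 9 were higher and 1 lower in Cfb-/- mice, with the lower genes at about the share of all genes or below it. Socs3, the feedback inhibitor of this pathway, rose by 2.23 in WT and 2.01 in Cfb-/- mice, the receptor genes Il6ra by 1.93 and 1.80 and Osmr by 1.90 and 2.08, and Stat3 by 1.42 and 1.38. The shared receptor subunit Il6st rose by 0.74 (limma adjusted p = 0.0179) in WT mice, and its difference was 0.14 (adjusted p = 0.671) in Cfb-/- mice. The receptor genes Il11ra1 and Il22ra1 fell by 0.89 and by 0.72 in WT mice.

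Genes that act on fibrinogen were counted in the same way. Of 25 coagulation and fibrinolysis genes, 22 were tested, with 12 higher and 3 lower in WT diabetic mice and 14 higher and 3 lower in Cfb-/- mice. F13a1, the fibrin crosslinking subunit, rose by 2.57 in WT mice, and Serpine2, an inhibitor of thrombin, by 2.10. Serpinf2, the plasmin inhibitor, fell by 1.98, F5 by 1.76, and Serpinc1, antithrombin, by 1.47. All 8 genes of fibrinogen receptors were higher in both genotypes, led in WT mice by the leukocyte integrin chains Itgam (2.09) and Itgb2 (1.58) and by Icam1 (1.21). None of the genes of these 5 lists was called between Cfb-/- and WT diabetic mice, where limma called 1 gene in all and 448 genes had an unadjusted p under 0.05.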

How the data were processed

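Total kidney RNA of 14 mice was made into stranded mRNA libraries and sequenced from both ends. The authors deposited 1 table per mouse of expression values that are read here as FPKM from their range and steps, since no header names the unit. The submitters' processing notes name Trimmomatic, HISAT2, Cufflinks, HTSeq, DESeq, and the build GRCm38.p6, with no role. FPKM adjusts for transcript length and depth, so the number of reads is not known and no counting error can be given.

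The members and gene lists were chosen with earlier results of these data known. Genes at 0.1 FPKM or more in at least 3 mice (14912 of 21878) were fitted on log2(FPKM + 0.1), with a mean per group over all 14 mice, with limma 3.58.1 and its mean-variance trend in R 4.3.3, and p values were adjusted by Benjamini-Hochberg over all tested genes. Fold changes on this scale understate those of low genes. The fit was tested on simulated data first. Exact two-sided permutation tests used scipy 1.17.1, and their smallest p was 0.0286 for 4 against 4 mice, 0.0571 for 4 against 3, and 0.1 for 3 against 3, so the last 2 designs cannot reach 0.05. P values measure the spread between mice as labelled.

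All 9 members are named, with up to 3 called genes of the largest rise and 3 of the largest fall per list in WT mice, the 3 genes most correlated with each member, and Il6, Il6ra, Il6st, Osmr, Stat3, Socs3, Lcn2, Orm1, and Cfb. One gene that this rule names is not reported here. Hepatocyte genes with values were picked from their list after the values were seen. Promoters were 250-base windows from the RefSeq table (GRCm38.p6), in which 8 members were found, and Hp was not searched. Alternatives were other filters (none, or 1 FPKM), pseudocounts of 1 and 0.01, median-ratio scaling, quantile normalization, the compared groups alone, a replicate block, leaving out each mouse, and 300-base promoter windows.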

Additional observations from a re-analysis of the deposited data

Results flagged for a closer look

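Among the 18 sets of values of the 9 genes in the groups of 4 mice, 2 held a mouse far from the others by Dixon's test, and chance flags about 1 in 20 such sets. Fgg was at 18.6 FPKM in the third WT diabetic mouse, against 13.9 to 14.4 FPKM in the other three. Reg3g was at 0.0719 FPKM in the third Cfb-/- diabetic mouse and listed at 0 in the other three, a case in which any value above 0 is set apart by this test and to which the chance rate does not apply. Groups of 3 mice were not examined in this way.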

How the results depend on the processing

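The counts of members called changed little. In WT mice, 4 to 6 members were higher over all settings (5 to 6 when a mouse was left out), and in Cfb-/- mice 3 to 5 (3 to 5 when a mouse was left out). Fga, Fgg, Hp, and Cp in WT mice and Fgb, Fgg, and Cp in Cfb-/- mice were called in all 16 settings, and Saa1 in WT mice in all 15 in which it was tested. Between diabetic groups and in the interaction, 0 members were called in every setting, and between control groups 0 to 1, the 1 being Fgb. The adjusted p of Reg3g in WT mice ranged from 0.00331 to 0.200 and that of Saa3 in Cfb-/- mice from 0.00323 to 0.117. Fgb turned to -0.25 under quantile normalization for diabetes in WT mice, and for genotype in diabetic mice, where it was 0.04, to -0.012 under median-ratio scaling, -0.021 under quantile normalization, and between -0.13 and 0.15 when a mouse was left out. The interaction of Cp turned to 0.033 under quantile normalization and lay between -0.39 and 0.25 without single mice, and that of Fgg between -0.40 and 0.23. The genotype difference in control mice lay between -0.17 and 0.87 for Fga and between -0.054 and 0.59 for Cp without single mice. The cause of these changes was not tested. With 300-base windows the same members held each promoter motif.

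With the replicate block, 5 members were called in WT and 3 in Cfb-/- mice, which lost Reg3g (adjusted p = 0.0690) and Saa3 (adjusted p = 0.0651), and it changed no other call. Same-numbered mice correlated between -0.388 and 0.243 in their deviations from group means. A pairing of the mice by number was thus not shown, and so few mice cannot exclude one. The unknown number of reads limits Saa1, Saa2, Saa3, and Reg3g most, since their values near 0.1 FPKM cannot be told from 0 with a known error.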
